A study of Glycyrrhiza uralensis with 12 samples.

Results

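The interaction of salt and G2 was examined in Glycyrrhiza uralensis seedlings, that is, whether the effect of the endophytic bacterium Bacillus cereus G2 on each gene and transcript differed between seedlings grown with and without salt. All 12 libraries of the study entered, in 4 groups of 3, and the interaction of each gene was the difference (S + G2 minus S) minus (CK + G2 minus CK) on the log2(CPM + 1) scale, where CPM is the number of reads on a gene per 1000000 mapped reads of the library. A positive value means that the G2 effect was higher with salt than without it, and a negative value that it was lower. Of 29436 genes listed, 22751 had at least 1 CPM in at least 3 libraries and were tested, and of 61882 transcripts 43795 were tested.

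The seedlings were 45 days old and were grown from seed in pots of sterilised desert sand. Those of S + G2 received water with 75 mM NaCl and a suspension of G2, those of S the same NaCl without bacteria, those of CK + G2 the bacteria in plain water, and those of CK plain water. The bacteria were given late, once most seedlings had reached the third true leaf, so the salt came before G2. The sample records write the groups with bacteria as S+B and CK+B. Whole seedlings were ground and sorted by weight into 3 biological replicates, and full-length cDNA libraries were made by a nanopore method. The sample records name a nanopore instrument for sequencing, whereas the study's methods name an Illumina one, and the transcript values are read here as those of full-length reads. Each of 3 replications of a treatment comprised 2 pots, but the sources used here do not tie the RNA libraries to pots, so the p-values below measure only the spread between these libraries. In RNA from whole seedlings, fewer cells of a type and less RNA per cell cannot be told apart.

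Salt in the root zone lowers water uptake and loads tissues with sodium, and plants respond in part by shifting carbon between starch, soluble sugars and respiration. Endophytic bacilli live inside plant tissue and can alter the hormone, antioxidant and sugar status of their host. On a log scale, an interaction is present where the effect of salt and bacteria together is not the sum of their single effects.

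The libraries held 3303591 to 3929023 reads, so that 1 read was worth 0.255 to 0.303 CPM, and a value of 0 allows up to 3 reads, or 0.764 to 0.908 CPM. In 8 of 12 libraries the most similar library was of the same group. The exceptions were S + G2 replicate 3, closest to S replicate 3, CK + G2 replicate 1, closest to S replicate 2, and the pair of CK + G2 replicate 3 and CK replicate 1, each closest to the other. The level of photosynthesis genes varied within groups. The main Rubisco small chain gene (Glyur000604s00024572) had 23125, 32629 and 18027 CPM in S + G2 libraries, 21077, 20059 and 21858 CPM in S libraries, 26328, 10129 and 7523 CPM in CK + G2 libraries, and 8774, 14475 and 18392 CPM in CK libraries. CK + G2 replicates 2 and 3 and CK replicate 1 were the lowest, and their part in the results was not tested. Fits without these 3 libraries, an alternative chosen after seeing the data, leave 1 library in CK + G2 and 2 in CK, so the lone library is assumed to vary like the other groups and a call lost there says nothing about Rubisco.

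Single genes rarely passed the test of the interaction. With limma and Benjamini-Hochberg adjustment, 1 of the 22751 genes (0.00440%) had an adjusted p under 0.05, and 1530 genes (6.72%) had an unadjusted p under 0.05. By the size and p of the study's rule for pairwise comparisons, read here as an unadjusted p under 0.05 and a difference of at least 1.5-fold, and called nominal below, 698 genes (3.07%) had a positive and 722 genes (3.17%) a negative interaction, together 6.24% of those tested. Among 43795 transcripts, 10 (0.0228%) had an adjusted p under 0.05, 9 of them positive, and 2909 (6.64%) were nominal. For G2 alone, limma gave an adjusted p under 0.05 in 0.00457% of transcripts with salt and in 0.0685% without it. The count of genes with an adjusted p under 0.05 was 0 without any of S replicates 1, 2 or 3, CK + G2 replicates 2 or 3 or CK replicate 3, 2 without S + G2 replicate 1 or CK + G2 replicate 1, 7 without CK replicate 1 and 10 without S + G2 replicate 3. On the reads recovered from the CPM it was 1 with edgeR and 50 with DESeq2.

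Across genes, the estimated effect of G2 with salt hardly correlated with its estimated effect without salt. These effects come from different libraries, S + G2 minus S and CK + G2 minus CK. Over the 22751 genes their Pearson r was -0.0501 and Spearman's rho -0.0412, and 51.56% of genes had opposite signs. Among the 3660 genes averaging 50 CPM or more, r was -0.168 and 55.05% had opposite signs. These values describe genes, which are not replicates. Each effect rests on 3 libraries a group, and few genes passed a test of either effect. The spread between libraries draws such an r towards 0, so it cannot tell whether the underlying effects are related. Nominally, 913 genes differed with G2 under salt (4.01% of those tested) and 1085 genes with G2 in its absence (4.77%). Both lists shared 85 genes, which is 9.31% of the first and 7.83% of the second, and 51 of the 85 had opposite signs. By limma's adjusted p under 0.05, 0 genes (0.00%) differed for G2 with salt, with 1367 genes (6.01%) at an unadjusted p under 0.05, and 17 genes (0.0747%) differed without salt. With edgeR these counts were 0 and 12 genes, and with DESeq2 20 and 71 genes.

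**Figure D1:**
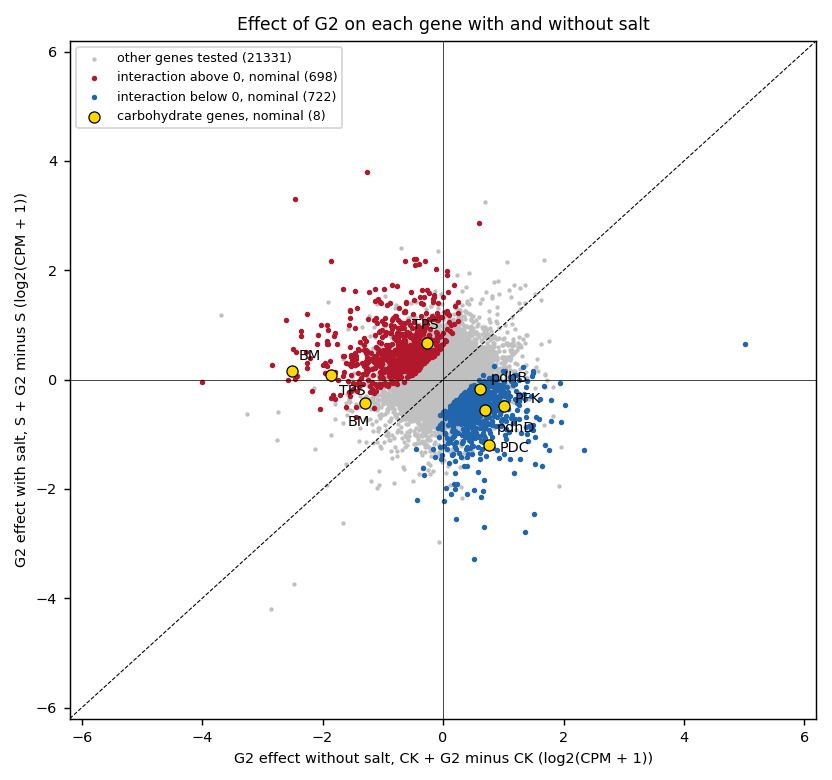
Effect of G2 with salt (vertical axis, S + G2 minus S) against its effect without salt (horizontal axis, CK + G2 minus CK), both on the log2(CPM + 1) scale, 1 point for each of the 22751 genes tested, with the line of equal effects dashed. Red points are the 698 genes with a positive and blue points the 722 genes with a negative nominal interaction, and the 8 yellow points are carbohydrate genes. The cloud has no slope along the dashed line (r = -0.0501).

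The 1420 nominal genes fell into several shapes when each G2 effect was set against a 1.5-fold difference. G2 reached that size without salt only in 490 genes (34.51%), with salt only in 357 (25.14%), and in both with opposite signs in 218 (15.35%). Over all 22751 genes tested, the shares of these shapes were 7.59%, 6.85% and 1.18%. In 352 genes (24.79%, beside 83.49% of all genes tested) neither effect reached it. Since the difference had to reach 1.5-fold, the effects in these genes had opposite signs by the rule itself. In 3 genes both reached it with the same sign (0.211%, beside 0.888% of all genes tested). The groups can also be set against CK. In 216 of the 698 positive genes (30.95%) S + G2, S and CK + G2 all lay at least 1.5-fold below CK, a shape found in 556 of all 22751 genes (2.44%). In 90 positive genes (12.89%) both single treatments lay below CK while S + G2 lay within 1.5-fold of it. In 111 negative genes (15.37%) both single treatments lay above CK while S + G2 lay within 1.5-fold of it. In either direction, that shape was found in 291 of all genes tested (1.28%). In 68 of the 722 negative genes (9.42%) S + G2, S and CK + G2 all lay at least 1.5-fold above CK, beside 204 of all genes tested (0.897%). These shapes use the same libraries as the interaction and are given as a description.

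Glyur000768s00019888 was the gene with an adjusted p under 0.05, and its G2 effect changed sign with salt. It lies on scaffold Scaffold00768 from 34528 to 35788 on the plus strand, has 2 exons and carries no function in the deposited annotation. It had 79.6, 69.1 and 76.6 CPM in S + G2 libraries, against 47.3, 42.7 and 46.1 CPM in S libraries. Without salt it had 28.4, 28.1 and 28.6 CPM in CK + G2 libraries, against 87.8, 55.1 and 73.3 CPM in CK libraries. The S + G2 libraries all exceeded those of S, and the CK + G2 libraries all lay under those of CK, so that both single treatments lay under CK and the pair of treatments at its level. The G2 effect was 0.71 with salt (SE 0.16, limma adjusted p = 0.562) and -1.29 without salt (SE 0.16, limma adjusted p = 0.0111), and the interaction was 2.002 (SE 0.23, limma adjusted p = 0.0153). The call was lost without S replicate 1 (adjusted p = 0.0672), S replicate 2 (0.0921), S replicate 3 (0.0802), CK + G2 replicate 2 (0.0648), CK + G2 replicate 3 (0.0767) or CK replicate 3 (0.0934), while the value stayed between 1.85 and 2.18. Over the alternatives that kept at least 2 libraries a group the adjusted p ran from 4.15e-12 to 0.0934, and it was 0.246 in the fit that left a single CK + G2 library.

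Functions are known in the sources for 22 genes of carbohydrate metabolism, which the study chose on these same libraries by salt against CK and by G2 under salt. Of these, 4 had a nominal positive and 4 a nominal negative interaction (8 of 22, 36.36%, against 6.24% of all genes tested). Because the choice used libraries that also enter the interaction, nothing is read from that share or from the signs. The lowest adjusted p among the 22 was 0.112 by limma, so 0 passed the adjusted threshold, as with edgeR, whereas 2 passed with DESeq2. By limma, 8 of them were under 0.05 before adjustment. The 4 positive genes belong to starch, sucrose and trehalose metabolism and the 4 negative genes to glycolysis, pyruvate dehydrogenase and fermentation. The difference S minus CK, on which the study chose genes, enters the interaction with a minus sign, and it was below 0 in the 4 positive genes and above 0 in the 4 negative ones, so this split is not independent of the choice.

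**Figure D2:**
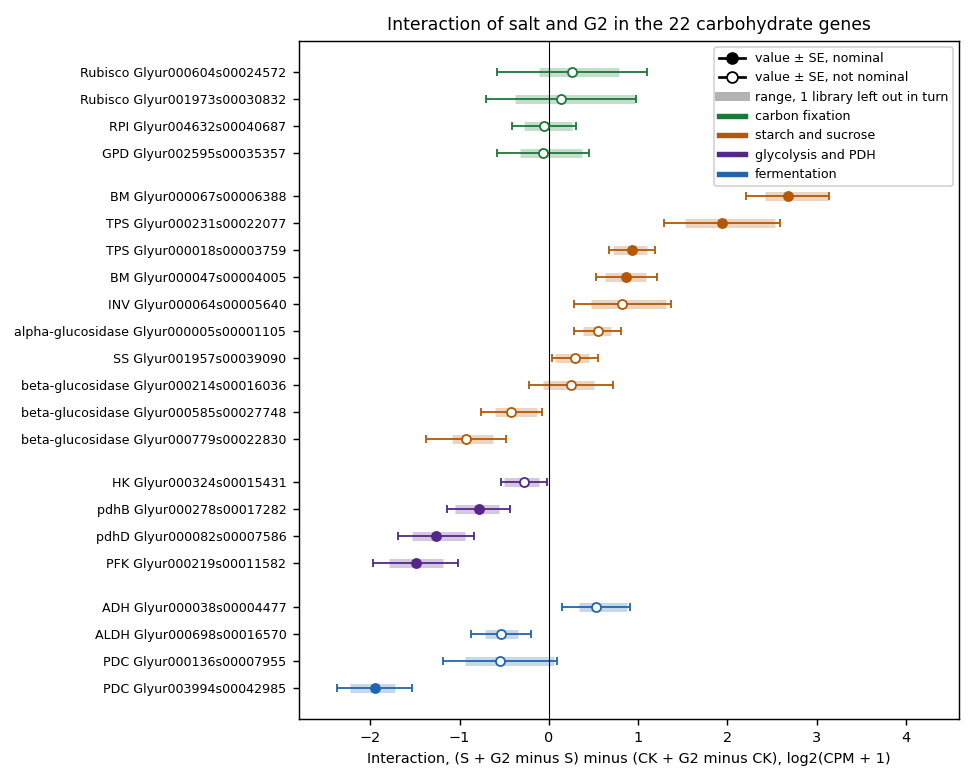
Interaction of salt and G2 in the 22 carbohydrate genes on the log2(CPM + 1) scale, by pathway (colours), with SE bars, filled points for nominal genes and a pale bar for the range when each library is left out in turn. The 4 starch and sucrose genes with filled points lie between 0.87 and 2.67, and the 4 filled points of glycolysis, pyruvate dehydrogenase and fermentation between -1.95 and -0.79.

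The study also ran qRT-PCR on the RNA pools used for sequencing, for several carbohydrate genes. Among them were the 3 negative genes of glycolysis and pyruvate dehydrogenase and the positive BM gene Glyur000067s00006388. By that method it reported the 3 negative genes raised by salt and lowered by G2 under salt. It reported this BM gene lowered by salt, without an effect of G2 under salt. By sequencing, the study listed none of these genes as changed by G2 under salt. The primer pairs designed for the 3 negative genes are shown here and were not placed on the gene sequences. They read 5′ to 3′ and, in the order of genes below, are as follows.
PFK forward: cagaggaagtgtatgcttgtgttg
PFK reverse: cctctattccgagaactctgtgc
pdhB forward: cctgcgtgaaggtttggaag
pdhB reverse: tgtgaaggcgttctcagcaat
pdhD forward: ctcaaccgccacaatcaacag
pdhD reverse: ttcccgcatacgaccactaac
They are 20 to 24 bases long.

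BM is β-amylase, which splits maltose from starch, and Glyur000067s00006388 had the largest interaction of the 22 genes. It lies on scaffold Scaffold00067 from 269733 to 273149 on the minus strand in 4 exons. The gene had 89.7, 93.7 and 33.9 CPM in S + G2 libraries, against 66.7, 61.0 and 50.4 CPM in S libraries. In CK + G2 libraries it had 55.0, 65.0 and 104.6 CPM, against 379, 436 and 438 CPM in CK libraries. All 9 treated libraries were below every CK library, and with salt the groups with and without G2 overlapped. G2 lowered it without salt (-2.52, SE 0.33, limma adjusted p = 0.0138) and the effect with salt was 0.16 (SE 0.33, limma adjusted p = 0.980), giving an interaction of 2.67 (SE 0.46, unadjusted p = 5.93e-05 and adjusted p = 0.112 by limma). The nominal call held in all 24 alternatives, with log2 values from 2.42 to 3.14. The adjusted p ran from 8.22e-06 with DESeq2 to 0.491, and was also under the threshold with limma on square roots (0.0165) and without S + G2 replicate 3 (0.00502).

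Glyur000047s00004005, also a BM gene (Scaffold00047 from 303842 to 306805, minus strand), was also highest in CK, over a smaller range. Its other groups overlapped, as in the first BM gene, so the order of their means is not read. It had 9.32, 13.2 and 9.58 CPM in S + G2 libraries, against 15.1, 10.1 and 19.9 CPM in S libraries, and 9.30, 10.8 and 10.9 CPM in CK + G2 libraries, against 23.4, 24.4 and 33.3 CPM in CK libraries. Every CK library was above all others again, and the G2 effect was -0.42 with salt, where the groups overlapped. The interaction was 0.87 (SE 0.34, unadjusted p = 0.0234 and adjusted p = 0.664 by limma). Its nominal call was lost without S + G2 replicate 2 (interaction 0.72), S replicate 2 (0.63) or CK replicate 3 (0.71).

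Both TPS genes were positive, but in different ways. TPS is trehalose 6-phosphate synthase/phosphatase, whose product trehalose 6-phosphate signals sugar supply in plants. Glyur000231s00022077 (Scaffold00231 from 173559 to 177086, minus strand) had 29.6, 40.6 and 9.32 CPM in S + G2 libraries, against 23.5, 16.3 and 24.9 CPM in S libraries. Without salt it had 21.1, 11.8 and 24.95 CPM in CK + G2 libraries, against 42.0, 74.7 and 105.3 CPM in CK libraries. As with BM, only CK stood apart, and the interaction was 1.94 (SE 0.65, unadjusted p = 0.0102 and adjusted p = 0.631 by limma). Glyur000018s00003759 (Scaffold00018 from 596594 to 614997, plus strand, 18 exons) had 45.3, 37.5 and 64.2 CPM in S + G2 libraries, against 29.3, 33.7 and 26.7 CPM in S libraries, with no overlap. Without salt it had 43.5, 37.6 and 43.5 CPM in CK + G2 libraries, against 55.1, 47.1 and 48.4 CPM in CK libraries, again with no overlap but in the opposite direction. Here S alone was low, the G2 effect was 0.66 with salt and -0.27 without it, and the interaction was 0.93 (SE 0.26, unadjusted p = 0.00337 and adjusted p = 0.548 by limma). Both nominal calls held in all 24 alternatives.

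The other 6 starch and sucrose genes were not nominal. Their interaction values ran from -0.93 in the β-glucosidase gene Glyur000779s00022830, which stayed at or below 3.09 CPM in every library, to 0.82 in INV, the invertase gene that splits sucrose. Glyur000005s00001105, α-glucosidase, had 34.1, 27.7 and 33.4 CPM in S + G2 libraries, against 23.2, 19.1 and 14.8 CPM in S libraries, with no overlap. It had 23.2, 22.6 and 17.9 CPM in CK + G2 libraries, against 17.5, 17.7 and 20.6 CPM in CK libraries, which overlapped. The pair of treatments was thus the high group, yet the interaction was 0.55 (SE 0.26, unadjusted p = 0.0590 and adjusted p = 0.767 by limma). Over all 10 genes of this pathway the median interaction was 0.68, beside -0.03 over all genes tested, a description only, since the genes were chosen on differences that form the interaction.

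**Figure D3:**
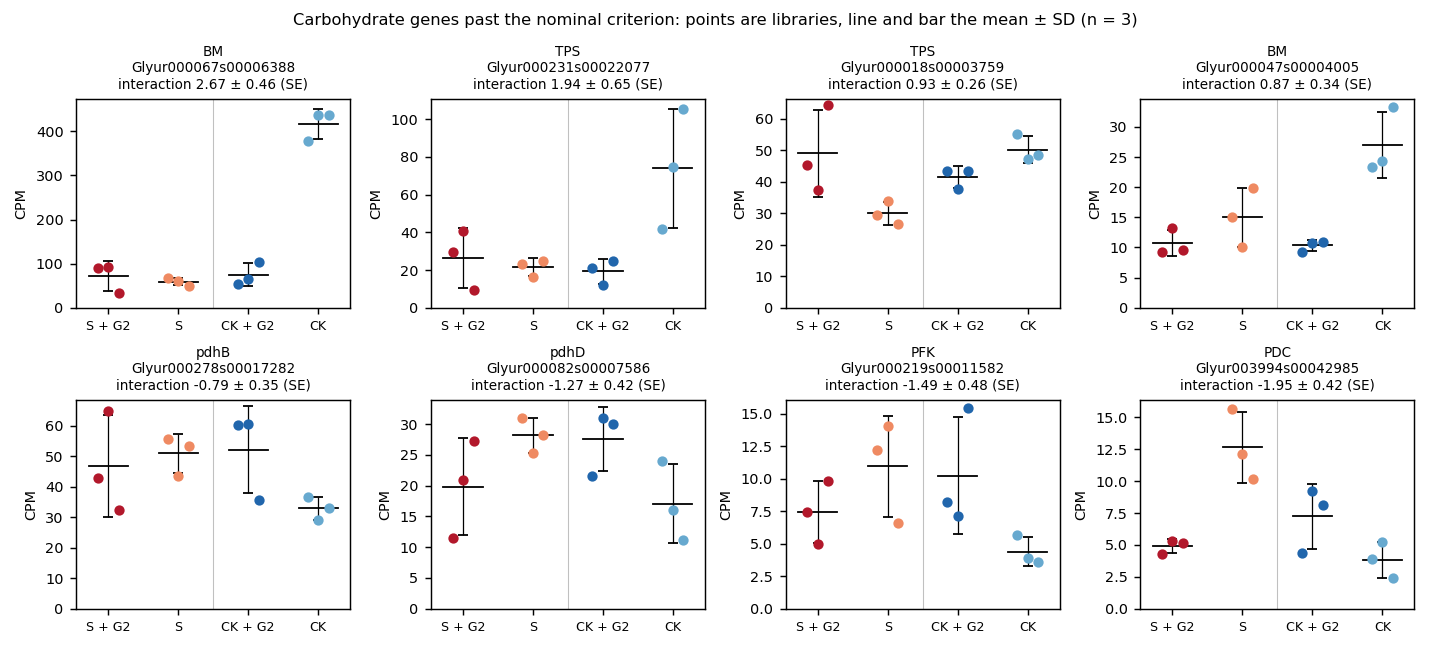
CPM of the 8 carbohydrate genes with a nominal interaction in the 12 libraries (points), with the mean and SD of each group (n = 3), for S + G2, S, CK + G2 and CK from left to right on a vertical axis that starts at 0. CK stands above the other 3 groups in both BM genes and in TPS Glyur000231s00022077 and below their means in PFK, pdhB, pdhD and PDC.

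The 4 genes of glycolysis and pyruvate dehydrogenase, chosen in the same way, had interactions below 0, with a median of -1.03, and 3 were nominal. PFK, 6-phosphofructokinase 1, commits hexose phosphate to glycolysis. Its gene Glyur000219s00011582 (Scaffold00219 from 149605 to 153662, minus strand, 12 exons) had 7.46, 5.01 and 9.83 CPM in S + G2 libraries, against 12.2, 14.1 and 6.62 CPM in S libraries. In water alone it had 8.20, 7.10 and 15.4 CPM in CK + G2 libraries, against 5.66, 3.88 and 3.63 CPM in CK libraries. With salt the groups overlapped, and without salt every library with G2 was above every one without it. The interaction was -1.49 (SE 0.48, unadjusted p = 0.00787 and adjusted p = 0.603 by limma). Its antisense neighbour Glyur000219s00011581 had group means of 7.94 to 10.8 CPM, as high as PFK itself, and no source states whether the counting used strand.

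The pyruvate dehydrogenase complex turns pyruvate into acetyl-CoA for the tricarboxylic acid cycle, and pdhB and pdhD encode its E1 β subunit and its dihydrolipoamide dehydrogenase. The pdhD gene Glyur000082s00007586 (Scaffold00082 from 200315 to 206786, plus strand, 15 exons) had 11.5, 20.8 and 27.2 CPM in S + G2 libraries, against 31.0, 25.3 and 28.3 CPM in S libraries. It had 21.6, 31.0 and 30.0 CPM in CK + G2 libraries, against 23.9, 16.1 and 11.2 CPM in CK libraries. Groups overlapped with and without salt, and the interaction was -1.27 (SE 0.42, unadjusted p = 0.0104 and adjusted p = 0.637 by limma). The pdhB gene Glyur000278s00017282 (Scaffold00278 from 82310 to 85905, minus strand) had 42.9, 64.9 and 32.4 CPM in S + G2 libraries, against 55.7, 43.6 and 53.5 CPM in S libraries. In CK + G2 libraries it had 60.2, 60.5 and 35.6 CPM, against 36.6, 29.1 and 33.0 CPM in CK libraries. In both genes S and CK + G2 had higher means than CK, and the mean of S + G2 lay between that of CK and theirs. The interaction of pdhB was -0.79 (SE 0.35, unadjusted p = 0.0446 and adjusted p = 0.732 by limma), and its nominal call was lost in 13 of 24 alternatives, among them every other scaling and each of 8 single libraries left out (S + G2 replicates 1 and 3, S replicates 1 and 3, CK + G2 replicates 1 and 2 and CK replicates 2 and 3, with values from -0.79 to -0.56). HK, hexokinase, which phosphorylates glucose and fructose, had an interaction of -0.28 and was not nominal.

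Of the fermentation genes, 1 of 4 was nominal. PDC, pyruvate decarboxylase, releases acetaldehyde from pyruvate as the first step of ethanol fermentation. Its gene Glyur003994s00042985 (Scaffold03994 from 7304 to 12844, minus strand, 6 exons) had 4.26, 5.28 and 5.18 CPM in S + G2 libraries, against 15.7, 12.1 and 10.2 CPM in S libraries. Where salt was absent it had 4.38, 9.21 and 8.13 CPM in CK + G2 libraries, against 3.86, 5.26 and 2.42 CPM in CK libraries. Every S + G2 library was below every S library, and without salt the groups overlapped with the higher mean in CK + G2. The G2 effect changed sign, -1.19 with salt (SE 0.30) and 0.76 without it (SE 0.30), and the interaction was -1.95 (SE 0.42, unadjusted p = 0.000434 and adjusted p = 0.299 by limma). The nominal call held in all 24 alternatives, from -2.23 to -1.41, with adjusted p from 0.0390 with DESeq2 to 0.784. The other PDC gene, Glyur000136s00007955, had an interaction of -0.55, ALDH -0.54 and ADH 0.52, none nominal, and the sign of the PDC and ADH values turned in 1 alternative each.

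In carbon fixation, the interaction of GPD, both Rubisco genes and RPI ran from -0.06 to 0.26, and 0 of 4 were nominal. Their SE was 0.36 to 0.84, wider than the values. All 4 values changed sign in some alternative, and the main Rubisco gene, as given above, varied widely among libraries of CK + G2 and of CK.

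Beyond the carbohydrate genes, the most positive interactions among 251 genes averaging 5 CPM or more at an unadjusted p under 0.01 were of several kinds. Glyur000236s00014246 (Scaffold00236 from 162068 to 162808, minus strand, 1 exon) had 3.20, 5.01 and 2.33 CPM in S + G2 libraries, against 0.870, 0.844 and 1.02 CPM in S libraries. It had 8.75, 2.63 and 10.9 CPM in CK + G2 libraries, against 40.9, 23.8 and 43.6 CPM in CK libraries. G2 libraries were thus higher with salt and lower without it, with no overlap at either salt level, and the interaction was 3.46 (SE 0.57, limma adjusted p = 0.107). The S libraries held 3, 3 and 4 reads, at or near the floor of 3 reads, so the G2 effect with salt rests on few reads. Glyur000885s00041681 (Scaffold00885 from 6939 to 7907, plus strand, 1 exon) had 43.7, 33.5 and 21.5 CPM in S + G2 libraries, against 22.9, 20.5 and 11.7 CPM in S libraries. It had 52.2, 22.4 and 60.3 CPM in CK + G2 libraries, against 174, 194 and 302 CPM in CK libraries. It fell with G2 without salt (-2.36, limma adjusted p = 0.0352) and its interaction was 3.16 (SE 0.52, limma adjusted p = 0.107). Glyur000098s00007983 (Scaffold00098 from 103495 to 117710, minus strand, 13 exons) had 63.1, 53.0 and 26.7 CPM in S + G2 libraries, against 51.3, 18.6 and 32.3 CPM in S libraries, and 87.5, 56.6 and 180 CPM in CK + G2 libraries, against 589, 392 and 639 CPM in CK libraries. CK was again the group that stood apart, and the interaction was 2.94 (SE 0.61, limma adjusted p = 0.277).

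The remaining 3 of the 6 most positive genes rested on uneven replicates or on few reads. Glyur001198s00038327 (Scaffold01198 from 36065 to 38146, plus strand) had 83.3, 40.4 and 47.4 CPM in S + G2 libraries, against 7.83, 0 and 6.11 CPM in S libraries. It was at 0 in all 3 CK + G2 libraries, against 12.6, 0 and 0 CPM in CK libraries. S + G2 was the high group, and the interaction was 5.05 (SE 1.301, limma adjusted p = 0.523), a size that depends on the added 1 CPM because CK + G2 is at 0. The assembled locus ONT.5461 had 58.6, 162 and 414 CPM in S + G2 libraries, against 10.7, 24.5 and 13.0 CPM in S libraries, and 19.4, 4.47 and 8.13 CPM in CK + G2 libraries, against 4.38, 255 and 122 CPM in CK libraries. CK replicate 1 went with CK + G2 rather than with the other CK libraries. Its interaction was 5.76 (SE 1.56, limma adjusted p = 0.539). ONT.1691 had 0 to 1.32 CPM in all 9 treated libraries and 3.60, 100.5 and 53.9 CPM in CK libraries, with an interaction of 3.95 (SE 1.14, limma adjusted p = 0.553). It reached an average of 5 CPM through CK alone. With salt it had 1, 3 and 0 reads in S + G2 libraries and 1, 2 and 1 in S libraries, which allow no G2 effect to be measured. Its nominal call was lost with edgeR (unadjusted p = 0.0967).

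**Figure D4:**
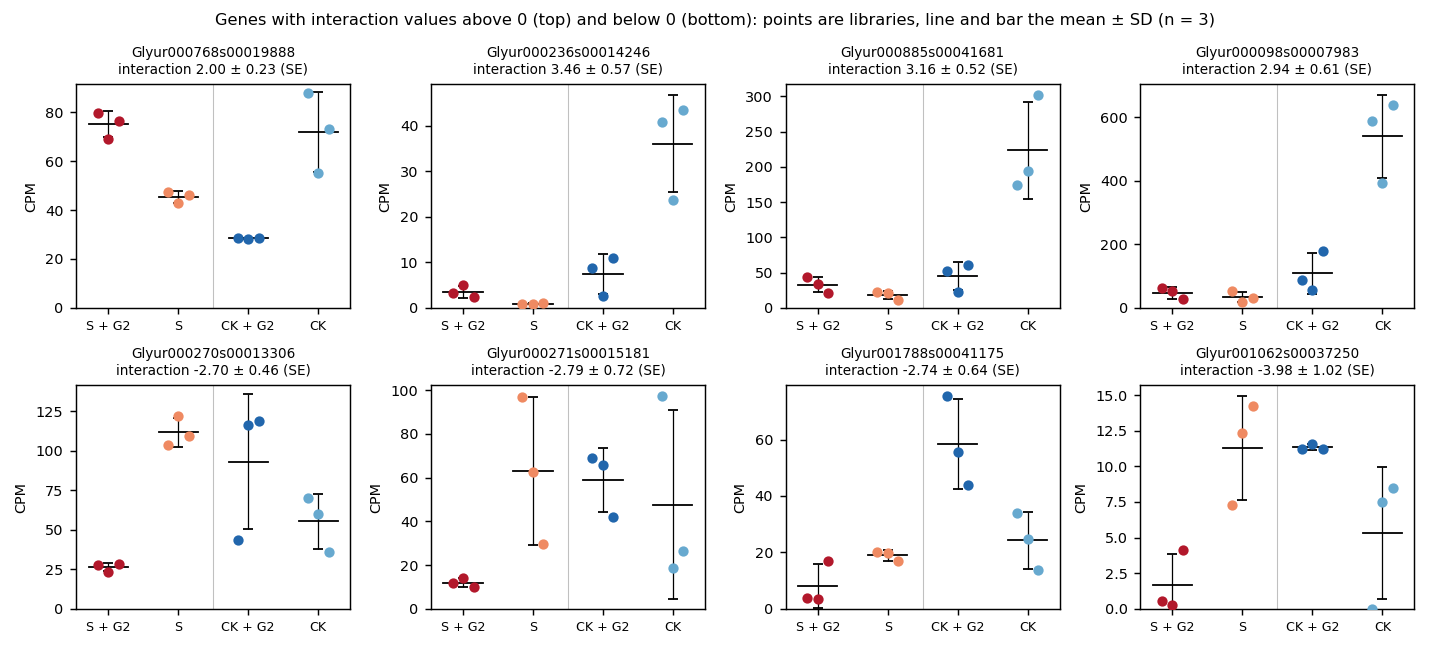
CPM of 8 genes named by the size of their interaction in the 12 libraries (points), with the mean and SD of each group (n = 3), for S + G2, S, CK + G2 and CK from left to right, positive interactions in the top row and negative ones in the bottom row. Glyur000768s00019888 is high in S + G2 and CK, with CK + G2 at 28.1 to 28.6 CPM, and Glyur000270s00013306 is low in S + G2, at 23.2 to 28.2 CPM.

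The most negative interactions also took several shapes, and low values in S + G2 were among them. Glyur000270s00013306 (Scaffold00270 from 215047 to 215532, plus strand, 1 exon) had 27.7, 23.2 and 28.2 CPM in S + G2 libraries, against 104, 122 and 109 CPM in S libraries. In water alone it had 43.8, 117 and 119 CPM in CK + G2 libraries, against 70.0, 59.8 and 36.0 CPM in CK libraries. All S + G2 libraries lay under every other library, and the groups without salt overlapped. The G2 effect was -2.04 with salt (SE 0.33, limma adjusted p = 0.204) and 0.66 without it, and the interaction was -2.70 (SE 0.46, limma adjusted p = 0.112). Glyur000271s00015181 (Scaffold00271 from 212098 to 213723, plus strand) had 11.98, 14.0 and 10.1 CPM in S + G2 libraries, against 96.9, 62.7 and 29.5 CPM in S libraries. It had 69.2, 65.8 and 42.1 CPM in CK + G2 libraries, against 97.6, 18.8 and 26.6 CPM in CK libraries. S + G2 was again below all other libraries, and the interaction was -2.79 (SE 0.72, limma adjusted p = 0.520).

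Glyur001062s00037250 (Scaffold01062 from 54776 to 57618, plus strand, 4 exons) had 0.533, 0.264 and 4.14 CPM in S + G2 libraries, against 7.25, 12.4 and 14.3 CPM in S libraries, and 11.2, 11.6 and 11.2 CPM in CK + G2 libraries, against 0, 7.47 and 8.48 CPM in CK libraries. S + G2 lay below S and CK + G2 above CK in every library, and the interaction was -3.98 (SE 1.02, limma adjusted p = 0.505). In Glyur001788s00041175 (Scaffold01788 from 18812 to 20958, plus strand) CK + G2 was the high group, with 75.5, 55.5 and 44.0 CPM against 34.0, 24.9 and 13.9 CPM in CK libraries. With salt it had 3.73, 3.43 and 17.1 CPM in S + G2 libraries, against 20.3, 19.7 and 16.8 CPM in S libraries, and the interaction was -2.74 (SE 0.64, limma adjusted p = 0.416). Glyur000137s00013322 had 3.46, 1.32 and 9.32 CPM in S + G2 libraries, against 14.5, 9.56 and 6.87 CPM in S libraries, and 5.195, 31.3 and 15.4 CPM in CK + G2 libraries, against 1.29, 4.71 and 6.36 CPM in CK libraries. Groups overlapped at both salt levels in this gene, and its interaction of -2.90 (SE 0.89, limma adjusted p = 0.564) was -1.13 where CK + G2 replicate 1, the lowest of its group, was the only CK + G2 library kept. The assembled locus ONT.9270 was at 27.4 to 79.0 CPM in CK + G2 libraries, against at most 0.554 CPM in CK libraries. With salt it had 10.4, 52.8 and 43.5 CPM in S + G2 libraries, against 30.5, 4.50 and 40.2 CPM in S libraries. Without salt it rose with G2 (5.02, limma adjusted p = 0.0208) and its interaction was -4.38 (SE 1.00, limma adjusted p = 0.411). Its CK libraries held 2, 2 and 0 reads, within the floor of 3 reads, so the size of both values depends on the added 1 CPM. Glyur001163s00025221, among the 2 most negative of the genes whose G2 effect changed sign, had 1.60, 1.06 and 0.776 CPM in S + G2 libraries, against 46.4, 31.2 and 1.02 CPM in S libraries, and 22.7, 0.789 and 0 CPM in CK + G2 libraries, against at most 0.554 CPM in CK libraries. It was uneven within S and within CK + G2. Its interaction was -4.13 (SE 1.59, limma adjusted p = 0.664), a size that depends on the added 1 CPM because its CK libraries held 1, 2 and 1 reads.

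Full-length reads also gave values for single transcripts, and 6 of the 10 with an adjusted p under 0.05 are described here, those of the largest size. Assembled transcripts were tied to an annotated gene where the reads of the gene minus those of its annotated transcripts equalled the reads of 1 assembled locus in all 12 libraries, which held for 13349 loci. Of 2337 genes with a nominal transcript, 1216 were also nominal as genes, and 74 had nominal transcripts in both directions, of which 7 were nominal as genes. Over all features tested, 6.24% of genes and 6.64% of transcripts were nominal. A gene with a single transcript has the same reads in both tables, and no share of genes with both directions was computed beside these counts. They are given as a description only.

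In ONT.15833.1, 1 of 4 transcripts of Glyur001894s00031741, the G2 effect changed sign. It had 26.1, 42.5 and 22.3 CPM in S + G2 libraries, against 10.7, 10.4 and 15.8 CPM in S libraries. In plain water it had 7.66, 7.63 and 11.5 CPM in CK + G2 libraries, against 22.4, 46.8 and 61.2 CPM in CK libraries. Groups overlapped at neither salt level, and the interaction was 3.28 (SE 0.48, limma adjusted p = 0.0435). The transcript held 32.1%, 57.7% and 29.6% of the reads of its gene in S + G2 libraries, against 17.2%, 16.8% and 24.5% in S libraries, and 10.04%, 10.2% and 13.8% in CK + G2 libraries, against 24.0%, 59.3% and 59.9% in CK libraries. Its sister ONT.15833.2, which held 60.5% of the reads of the gene in all, had an interaction of -1.15 (unadjusted p = 0.0210 by limma), and that of the whole gene was 0.50 (SE 0.19, limma adjusted p = 0.660).

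ONT.14024.4, 1 of 5 transcripts of Glyur001087s00023161, had the same change of sign. It had 29.3, 20.3 and 26.1 CPM in S + G2 libraries, against 11.9, 10.1 and 11.7 CPM in S libraries, and 2.73, 1.58 and 1.40 CPM in CK + G2 libraries, against 6.18, 16.9 and 11.8 CPM in CK libraries. S + G2 was above S and CK + G2 below CK in every library. The interaction was 3.14 (SE 0.44, limma adjusted p = 0.0328), while the whole gene had -0.11 (SE 0.27, limma adjusted p = 0.971). The share of the reads of its gene was 13.6% in S + G2, 6.02% in S, 1.23% in CK + G2 and 7.99% in CK.

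A further 3 transcripts were high in CK alone. ONT.8288.1, which held 66.2% to 83.3% of the reads of Glyur000295s00015298 in every library, had 23.7, 16.1 and 12.7 CPM in S + G2 libraries, against 15.4, 15.5 and 19.6 CPM in S libraries, and 11.8, 18.9 and 13.2 CPM in CK + G2 libraries, against 75.2, 120 and 141 CPM in CK libraries. Its interaction was 2.85 (SE 0.39, limma adjusted p = 0.0328) and that of the gene 2.58 (SE 0.36, limma adjusted p = 0.0678), so the gene had nearly the value of the transcript. ONT.6136.7 had at most 1.04 CPM, or 4 reads, in the 9 treated libraries and 13.9, 9.14 and 18.2 CPM in CK libraries, with an interaction of 3.47 (SE 0.48, limma adjusted p = 0.0328), and was a minor form of Glyur000170s00011001, at 6.15% to 11.9% of its reads in CK libraries. The interaction of that whole gene was 0.63 (SE 0.42, limma adjusted p = 0.863). With salt ONT.6136.7 had 1, 1 and 4 reads in S + G2 libraries and 1 in each S library, which allow no G2 effect to be measured. ONT.17421.3 was at or below 0.518 CPM, within the floor of 3 reads, in the 9 treated libraries and at 7.98, 7.75 and 10.6 CPM in CK libraries. Its interaction was 3.24 (SE 0.40, limma adjusted p = 0.0328), a value that depends on the added 1 CPM because the other groups are at the floor. It passed the filter on low values through the CK libraries alone, its reads with salt allow no G2 effect to be measured, and with edgeR and DESeq2 it had an adjusted p of 0.501 and 0.111.

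ONT.10593.3 was the only negative transcript of the 10. It was at 0 in all 3 S + G2 libraries, against 1.74, 2.25 and 2.55 CPM in S libraries, and at 2.73, 1.58 and 2.24 CPM in CK + G2 libraries, against 0, 0.277 and 0.908 CPM in CK libraries. Both single treatments were above the floor of 3 reads, and CK and the pair of treatments at or under it, in a form that never exceeded 4.74% of the reads of Glyur000520s00025562. The interaction was -2.89 (SE 0.42, limma adjusted p = 0.0381), a value that depends on the added 1 CPM because S + G2 is at 0. The transcript passed the filter on low values through S and CK + G2 alone. Its call was lost with a pseudocount of 0.1, with the replicate block and with DESeq2.

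The calls of these transcripts were fragile. Of 10, 0 remained at an adjusted p under 0.05 without S + G2 replicate 1, S + G2 replicate 2, S replicate 3, CK + G2 replicate 1 or CK replicate 3, and the count was 35 without S + G2 replicate 3 and 13 or 14 without CK replicate 1 or CK + G2 replicate 2. Without S replicate 1, S replicate 2, CK + G2 replicate 3 or CK replicate 2 the count was 1.

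Some of the largest interactions were those of transcripts whose share of their gene differed between groups. ONT.2031.1 of Glyur000038s00004480 had 55.1, 151 and 87.7 CPM in S + G2 libraries, against 111, 3.66 and 33.3 CPM in S libraries. In plain water it had 2.73, 3.95 and 3.36 CPM in CK + G2 libraries, against 197, 119 and 124 CPM in CK libraries. CK + G2 was almost without this form, at 0.639% to 0.8004% of the reads of the gene, against 31.3% to 43.6% in CK libraries, whereas with salt the groups overlapped, at 12.1% to 38.8% in S + G2 libraries and 0.892% to 24.2% in S libraries. G2 lowered it without salt (-5.05, SE 0.79, limma adjusted p = 0.0310), and the interaction was 6.86 (SE 1.11, limma adjusted p = 0.0795). Both other main forms, ONT.2031.2 and ONT.2031.3, had interactions of -1.14 and -1.21, and the whole gene had -0.30 (SE 0.22, limma adjusted p = 0.883).

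In Glyur001026s00034299 the change came with salt. ONT.13786.2 had 2.66, 4.75 and 25.9 CPM in S + G2 libraries, against 165, 212 and 169 CPM in S libraries. It had 170, 248 and 142 CPM in CK + G2 libraries, against 183, 120 and 89.3 CPM in CK libraries. The form fell with G2 under salt (-4.46, SE 0.54, limma adjusted p = 0.0405), and its share of the gene was 0.907%, 1.80% and 9.60% in S + G2 libraries, against 52.3% to 64.3% in S libraries, 46.3% to 77.3% in CK + G2 libraries and 35.8% to 59.8% in CK libraries. The interaction was -4.99 (SE 0.76, limma adjusted p = 0.0533). ONT.13786.1, the other main form, had an interaction of 1.20 and a share of 93.9% in S + G2, 41.0% in S, 41.6% in CK + G2 and 51.1% in CK, and the whole gene had 276, 313, 326 and 278 CPM in the same groups.

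**Figure D5:**
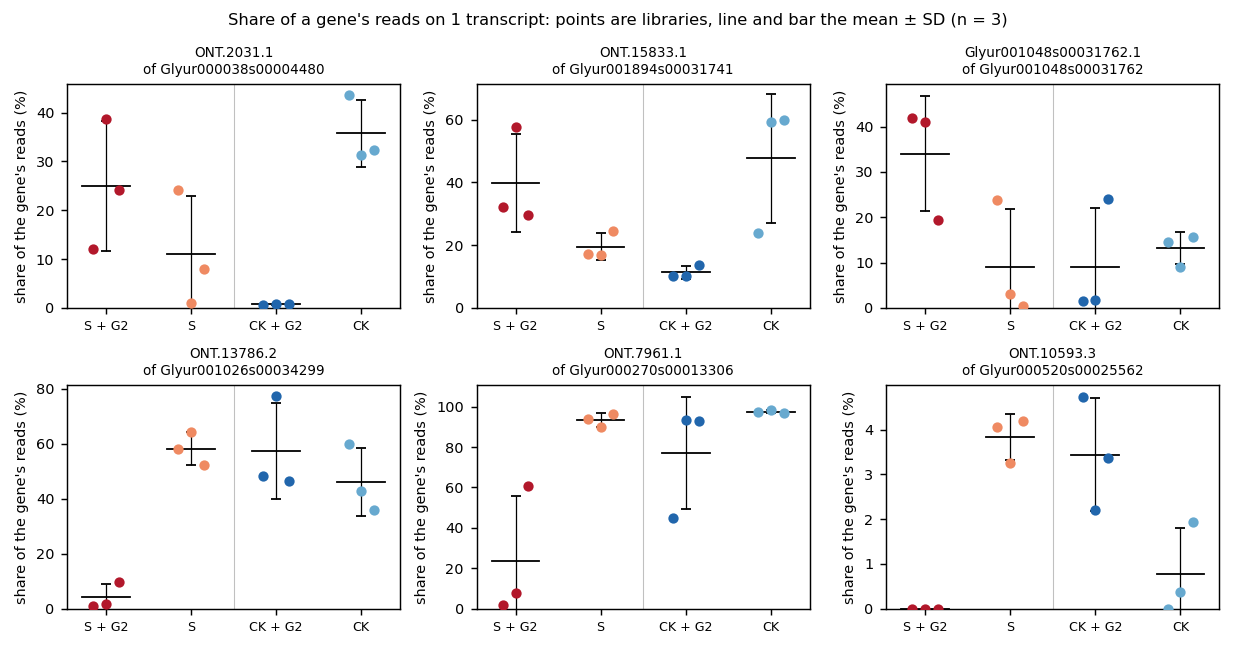
Share of the reads of a gene on 1 transcript, in percent, for 6 transcripts in the 12 libraries (points), with the mean and SD of each group (n = 3), for S + G2, S, CK + G2 and CK from left to right. ONT.2031.1 is nearly absent from CK + G2 (0.639% to 0.8004%) and ONT.13786.2 from S + G2 (0.907% to 9.60%).

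The gene Glyur000270s00013306, described above, also differed in its forms. Its form ONT.7961.1 held 1.92%, 7.96% and 60.6% of the reads in S + G2 libraries, against 93.9%, 89.8% and 96.3% in S libraries, and 45.0%, 93.2% and 92.9% in CK + G2 libraries, against 97.4%, 98.2% and 96.6% in CK libraries. All S + G2 libraries were below all S libraries, though S + G2 replicate 3 was far from the other replicates. The interaction was -4.87 (SE 1.07, limma adjusted p = 0.331). The annotated transcript Glyur001048s00031762.1 had 742, 1240 and 386 CPM in S + G2 libraries, against 482, 54.6 and 6.36 CPM in S libraries, and 35.0, 21.6 and 264 CPM in CK + G2 libraries, against 167, 122 and 277 CPM in CK libraries. Groups overlapped at both salt levels, and the interaction was 5.19 (SE 1.65, limma adjusted p = 0.585) beside 0.09 for the whole gene. ONT.10938.9, which could not be tied to a gene, had 65.0, 17.7 and 144 CPM in S + G2 libraries, against 54.0, 43.3 and 87.3 CPM in S libraries, and 113, 101 and 27.8 CPM in CK + G2 libraries, against 0.515, 1.11 and 0.303 CPM in CK libraries. It rose with G2 without salt (5.43, limma adjusted p = 0.00430), and its interaction was -5.52 (SE 0.89, limma adjusted p = 0.0795). Its CK libraries held 2, 4 and 1 reads, near or within the floor of 3 reads, so the size of both values depends on the added 1 CPM. ONT.5461.1 carried 48.7% to 98.9% of the reads of the locus ONT.5461 and had an interaction of 6.24 (SE 1.66, limma adjusted p = 0.470).

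In the carbohydrate genes with a nominal interaction, the transcripts of a gene shared its sign. All tested forms of the 4 positive genes had positive values and all of the 4 negative genes negative values. The reads of a gene include those of its transcripts, so this sharing follows in part from the gene calls and is a description only. PDC had 1 transcript, with 100% of its reads, and ONT.3690.1 held 93.0% of those of pdhD. By limma the unadjusted p was 0.0821 and 0.0720 for the forms of pdhB, and 0.0873 for the annotated transcript of pdhD. The BM gene Glyur000067s00006388 had 4 forms, with interactions of 2.31 for the annotated transcript (SE 0.85, limma adjusted p = 0.649) and 2.69 for ONT.3199.2 (limma adjusted p = 0.120), which held 81.0% of its reads. The annotated form made up 3.56%, 4.23% and 5.34% of the reads in S + G2 libraries, against 17.4%, 30.4% and 14.7% in S libraries, and 4.98%, 3.24% and 4.02% in CK + G2 libraries, against 4.28%, 32.2% and 24.0% in CK libraries. Its share was lower with G2 than without it under salt in every library, and without salt CK replicate 1 was at the level of CK + G2. For the other 7 genes, the annotated transcripts gave -1.95 for PDC, -1.18 for PFK, -0.91 for pdhD, -0.62 for pdhB, 0.88 for BM Glyur000047s00004005 and 1.79 for TPS Glyur000231s00022077, while those of TPS Glyur000018s00003759 had too few reads to be tested.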

How the data were processed

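RNA of 12 seedling samples was sequenced as full-length cDNA. The authors kept full-length reads, aligned them to reference transcripts and deposited CPM for each gene and transcript, with a scaffold annotation from which coordinates and exons were read. The submitters' processing notes name minimap2. Genome build and strand use were not given in the sources used here. Of the values above 0, 100% were whole multiples of 1 read within 0.01, so reads were recovered for count tests. Groups came from the sample records. limma 3.58.1 (trend) in R 4.3.3 was fitted to log2(CPM + 1) of all 12 libraries in 4 groups, for features reaching 1 CPM in 3 or more libraries, with Benjamini-Hochberg adjustment over all features of a table. The code was tested on simulated data. Also tried were scaling by TMM or median of ratios, edgeR 4.0.16 and DESeq2 1.42.0 on recovered reads, array weights, other filters, pseudocounts of 0.5 and 0.1, square roots, a replicate block and each library left out. Leaving out the 3 libraries of low Rubisco was chosen after seeing the data.

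The genes, lists and rules were chosen with earlier results of these data known. Named were the 22 carbohydrate genes, the features with an adjusted p under 0.05 (at most 6 transcripts), the 6 genes and 3 transcripts of largest interaction each way among features averaging 5 CPM or more at an unadjusted p under 0.01, and the 2 largest each way of the genes whose G2 effect changed sign. Primer sequences came from the supplement of the study. Figures were drawn with matplotlib 3.10.9.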

Additional observations from a re-analysis of the deposited data

Results flagged for a closer look

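In 1 gene and 10 transcripts the effect of G2 with salt differed from that without salt by a test of the difference itself, with an adjusted p under 0.05 by limma. The differences, on the log2(CPM + 1) scale, were 2.002 for the gene Glyur000768s00019888, 3.47 for ONT.6136.7, 3.28 for ONT.15833.1, 3.24 for ONT.17421.3, 3.14 for ONT.14024.4, -2.89 for ONT.10593.3 and 2.85 for ONT.8288.1, the 6 transcripts of largest size. Those of the other 4 were 2.45 for ONT.9087.2, 2.42 for ONT.9087.1, 2.32 for ONT.4501.4 and 2.002 for Glyur000768s00019888.1, the only transcript of the gene Glyur000768s00019888. The value of ONT.17421.3 depends on the added 1 CPM, since 9 of its 12 libraries held at most 2 reads and the filter was passed through CK alone. ONT.6136.7 had at most 4 reads outside CK, so its reads with salt allow no G2 effect to be measured. The value of ONT.10593.3 also depends on the added 1 CPM, since it was at 0 in S + G2 and passed the filter through S and CK + G2 alone. No cause was tested for any of them.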

How the results depend on the processing

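Depth limits transcripts near the floor of 3 reads, and 3 libraries a group limit the interaction, which adds the errors of 4 groups. The count of genes with an adjusted p under 0.05 was 1, and became 50 with DESeq2, 4 with array weights, 7 on square roots and 0 without the 3 libraries of low Rubisco, which leaves 1 library in CK + G2 and shows nothing about stability. For transcripts it was 10, and became 1 with edgeR, 74 with DESeq2, 6 with a filter at a mean of 10 reads, and 0 with a pseudocount of 0.1, with the replicate block or without those 3 libraries. With 1 library left out in turn, the counts ran from 0 to 10 genes and from 0 to 35 transcripts by adjusted p, from 1030 to 1804 nominal genes, from 2187 to 3533 nominal transcripts, from 6 to 10 of the 22 carbohydrate genes, from 725 to 1449 genes for G2 with salt (highest without S + G2 replicate 3) and from 788 to 1416 for G2 without salt. The cause was not tested.

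No pairing by replicate number was seen. Deviations of same-numbered libraries correlated from -0.201 to 0.109 over 18 pairs, with 1 over 0.1. Between S + G2 replicate 2 and CK + G2 replicate 1, which differ in number, the correlation was 0.267. These values cannot exclude a pairing, and no test of it was run. With the replicate block, the count was 1 gene and 0 transcripts by adjusted p and 1369 nominal genes.

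Interaction values that changed sign were those of GPD Glyur002595s00035357 (0.13 with array weights, -0.32 to 0.37 with 1 library left out), Rubisco Glyur000604s00024572 (-0.50 without the 3 libraries, -0.11 to 0.79 with 1 left out), Rubisco Glyur001973s00030832 (-0.10 with edgeR, -0.0936 with DESeq2, -1.18 without the 3 libraries, -0.37 to 0.97 with 1 left out), RPI Glyur004632s00040687 (0.0426 with array weights, -0.28 to 0.26 with 1 left out), β-glucosidase Glyur000214s00016036 (-0.0626 to 0.51 with 1 left out), PDC Glyur000136s00007955 (-0.94 to 0.0568 with 1 left out) and ADH Glyur000038s00004477 (-0.18 without the 3 libraries). Over the 55 features described, 1127 values under alternatives kept their call, 132 lost it, 27 gained it and 22 changed sign.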

Other observations

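Genes of 1 exon were more frequent among genes higher in CK than in all treatments, nominal or not, than among all genes tested. Of 635 annotated genes with a nominal positive interaction, 194 (30.55%) had 1 exon, beside 93 of 660 (14.09%) with a nominal negative interaction and 2772 of 21485 (12.9%) tested. Among genes with a mean of at least 50 CPM the shares were 32.2%, 20.5% and 10.4%. Of the 194 annotated positive genes in which S + G2, S and CK + G2 all lay under CK, 86 (44.33%) had 1 exon, as had 77 of the 275 genes (28%) with that shape and no nominal interaction, and 108 of the other 441 positive genes (24.49%). With a mean of at least 50 CPM these counts were 15 of 49 (30.61%), 10 of 39 (25.64%) and 24 of 72 (33.33%). At that level the positive genes with this shape were thus not above the other positive genes, while at lower levels they were. With a mean of 5 to 50 CPM the counts were 51 of 102 (50%), 37 of 127 (29.13%) and 46 of 226 (20.35%). Under a mean of 5 CPM they were 20 of 43 (46.51%), 30 of 109 (27.52%) and 38 of 143 (26.57%).

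Next to the BM gene Glyur000067s00006388 lies Glyur000067s00006387 (Scaffold00067 from 268372 to 269349, plus strand, 2 exons), singled out after its values were seen. It had 79.9, 64.4 and 41.7 CPM in S + G2 libraries, against 54.5, 35.4 and 44.0 CPM in S libraries, and 45.1, 56.6 and 72.9 CPM in CK + G2 libraries, against 195, 174 and 174 CPM in CK libraries. As in BM, all 9 treated libraries were below every CK library, and the interaction was 2.08 (SE 0.34, limma adjusted p = 0.107).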
